A study of Mus musculus with 6 samples.

Results

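Half-methylated CpG sites far from transcription start sites (TSSs) were described in germline stem (GS) cells, the cultured form of mouse spermatogonial stem cells. The sites were chosen by their measured levels: an autosomal site had to lie over 10 kb from the closest TSS, carry 15 or more reads in all 6 samples, and have a mean methylation level of 30% to 70% over the 6 samples. This rule picked 7278 sites, or 7.03% of the 103598 autosomal sites that met the distance and coverage limits and 0.321% of the 2268080 sites in the whole table. DNA methylation had been measured by reduced representation bisulfite sequencing (RRBS), in which DNA fragments rich in CpG are sequenced after bisulfite has converted unmethylated cytosines. The GS cells carried the genotype DBA/Tg14(act-EGFP-OsbY01), that is, an EGFP transgene under an actin promoter bred, per the study's methods, into the DBA/2 background, and were grown on mouse embryonic fibroblast feeders. Both groups were frozen for 6 months, either in the International Space Station (Space GS cells, n = 3) or on earth (Ground GS cells, n = 3), so that freezing and thawing were common to both. DNA was taken 14 days after thawing and 2 rounds of passage. The labels do not say whether the 3 samples of a group came from separate lines, vials or cultures, so the spread between them may be technical.

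CpG methylation is copied to the daughter strand at each cell division by DNMT1 and is set down anew by DNMT3 enzymes, whereas TET enzymes oxidise it on the way to removal. Most CpGs of a mammalian genome are methylated, and CpG-rich promoters are largely free of it. An intermediate level in a population of cells can come from cells that differ, from the 2 alleles, or from partly methylated stretches of DNA, and a table of read counts per site does not tell these apart.

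The libraries gave 28535973 to 33743845 reads summed over CpG sites, and the median coverage of a half-methylated distant site was 28 to 33 reads per sample. At 28 reads, 14 of them methylated, the 95% Wilson interval of a level of 50% was 32.6% to 67.4%, and this interval covers counting error only. The identity of the cells was checked at the promoters of 8 germ cell genes that are methylated in most somatic cells (Dazl, Ddx4, Mael, Sycp3, Sycp1, Asz1, Hormad1 and Stk31). The 7 promoters with covered sites had levels of 0% to 6.64% in every sample, the highest being Hormad1 in Ground replicate 1. The part of feeder cell DNA in the levels described here was not tested beyond these values.

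Intermediate levels formed the trough of a distribution with peaks at both ends. Of the distant covered sites, 40.6% had a level under 10% and 39.9% a level over 90%. Within the band, the sites were spread almost evenly, with 1773 sites from 30% to 40%, 1730 from 40% to 50%, 1720 from 50% to 60% and 2055 from 60% to 70%. Half-methylated sites were rarer close to a TSS. The same band of levels held 3.41% of the covered autosomal sites 1 kb to 10 kb away (2991 sites). Within 1 kb it held 0.230% (708 sites).

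**Figure D1:**
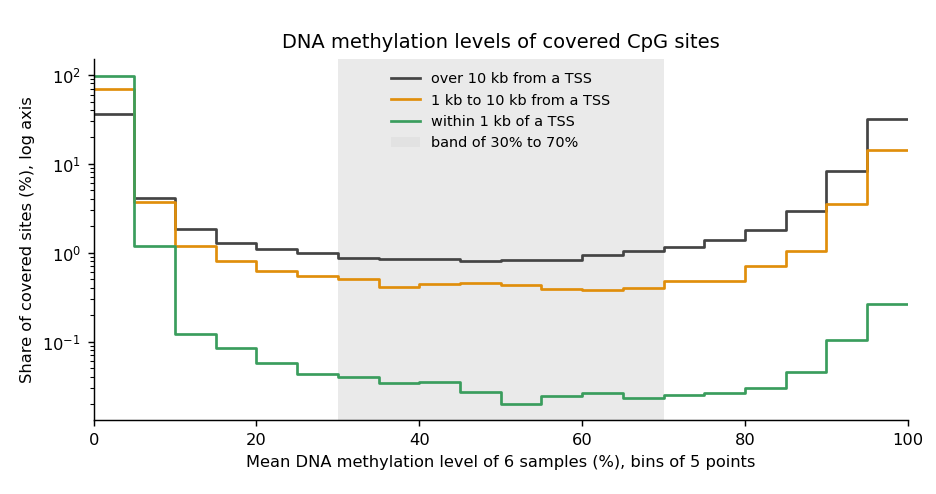
Share of covered autosomal CpG sites (y axis, percent, log axis) by mean methylation level of the 6 samples (x axis, percent, bins of 5 points), for sites over 10 kb, 1 kb to 10 kb and within 1 kb of a TSS. The grey band marks levels of 30% to 70%, where each bin of distant sites held 0.815% to 1.04% of the sites.

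The edges of the selection are given as a description. The lowest mean levels inside the band were 30.014% at a site nearest Zfp169 and 30.023% at a site nearest Otub1, and the closest sites outside it had 29.991% (nearest Gm36074) and 29.988% (nearest Fat3). At the upper end, sites nearest Dclre1a (69.998%) and Ankrd16 (69.989%) were inside, and sites nearest Syt2 (70.001%) and Gm45389 (70.008%) were outside. A site just inside the distance limit was 10008 bp away (Slc35f6), whereas half-methylated sites at 9990 bp (Gm43500) and 9989 bp (Tjp3) were left out. On the coverage limit, 719 sites had exactly 15 reads in their lowest sample, for example sites nearest Npbwr1 (mean level 32.1%) and St18 (39.2%), and 682 sites with 14 reads, for example those nearest Mybl1 (38.1%) and Cpa6 (59.1%), were left out. Levels, distances and coverage thus ran on across the limits without a gap.

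Half-methylated sites became more frequent with distance from a TSS. They made up 5.62% of the covered sites 10 kb to 20 kb away, 6.26% at 20 kb to 50 kb, 7.09% at 50 kb to 100 kb, 10.2% at 100 kb to 500 kb and 20.2% beyond 500 kb. The last of these bands held 305 half-methylated sites with 112 nearest genes, 32 of them nearest Gm29235, and its share was 18.6% without that gene. The median distance was 41078.5 bp (quartiles 20677.5 and 105512 bp), against 32454 bp for all distant covered sites, and 48.0% lay upstream of the closest TSS against 42.4% of all distant covered sites.

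The local density of CpGs also differed between levels. Half-methylated sites had a median of 3 other sites of the table within 100 bp, whereas sites under 10% had 11 and sites over 90% had 2. Their share was 7.35% where 0 to 1 other sites lay within 100 bp, 10.3% where 4 to 6 did, and 0.773% where 13 or more did. Sites in the densest stretches of CpG were therefore seldom half-methylated. The share also moved with coverage, from 8.29% of distant sites with 15 to 19 reads in the lowest sample to 3.66% of those with 50 or more, and the part of depth in these shares was not tested. By chromosome, the share ran from 5.03% on chromosome 11 to 9.98% on chromosome 3.

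**Figure D2:**
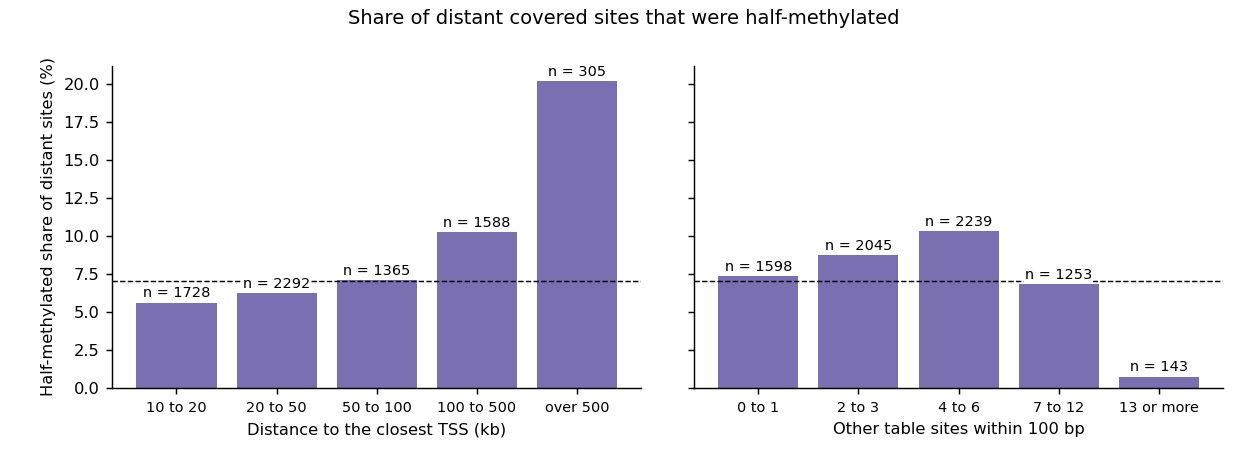
Share of distant covered sites with a level of 30% to 70% (y axis, percent) by distance to the closest TSS (left, kb) and by the number of other table sites within 100 bp (right). Bars are shares over all such sites, n is the number of half-methylated sites and the dashed line marks the share over all distant covered sites, 7.03%; the share rises to 20.2% beyond 500 kb and falls to 0.773% at 13 or more neighbours.

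Half-methylated sites lay together. The median distance to the nearest other one was 34 bp, and 63.8% had another within 100 bp, whereas 4.22% of the other distant covered sites had a half-methylated distant site within 100 bp. Widening the window added little: 67.1% had another within 1000 bp and 69.4% within 10000 bp, against 6.40% and 13.1% of the other distant sites. RRBS reads short fragments, so that covered sites of every level come in groups, and the comparison with the other distant sites carries that grouping too.

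Runs of half-methylated sites with gaps of at most 100 bp were called clusters. The 7278 sites fell into 4209 clusters and single sites, namely 2632 single sites, 866 pairs and 711 clusters of 3 or more sites, and the clusters of 3 or more held 2914 sites (40.04%). Of the single sites, 1413 had no other covered site of any level within 100 bp. Clusters were short, with a median length of 61 bp for those of 3 or more and at most 412 bp. In all, 189 clusters had 5 or more sites and 13 had 10 or more. Within the span of the clusters of 3 or more, 92.0% of the 3168 covered sites were themselves half-methylated, and the site levels in a cluster differed by a median of 11.1 points between the lowest and the highest.

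The sites on either side showed whether a half-methylated site was part of a stretch or a step between states. Of the 2010 sites with covered sites within 50 bp on both sides, 54.0% had half-methylated sites on both. A further 15.6% had a half-methylated site on one side and one over 70% on the other, and 12.8% had a half-methylated site and one under 30%. Isolated intermediate sites were the smaller part, 12.04% lying between sites over 70% and 4.33% between sites under 30%. Only 23 sites (1.14%) lay on a step with a site under 30% on one side and a site over 70% on the other.

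The cluster with most sites was nearest Nfatc2, which encodes a transcription factor of the calcineurin-regulated NFAT family, and held 24 half-methylated sites on chr2:168412805-168413216 (mm39), 30361 to 30772 bp downstream of the TSS. Its level over all reads was 48.5%, 50.2% and 50.1% in Space GS cells and 43.6%, 50.7% and 40.6% in Ground GS cells. Every covered site in the span was half-methylated, with mean levels from 36.3% to 60.6%. The groups overlapped, because Ground replicate 2 was the highest of all 6 samples (49.6% ± 0.925 against 45.0% ± 5.20, SD, n = 3 each, exact permutation test, two-sided p = 0.4). With 3 samples against 3 the smallest p that this test can give is 0.1.

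Next in size were clusters of 13 sites nearest Zfp251, Samd14, Esp38 and Elfn1. The Zfp251 cluster (chr15:76737672-76737910), near a gene for a zinc finger protein, had 44.8%, 45.1% and 36.2% in Space and 40.7%, 48.3% and 28.8% in Ground GS cells. The Samd14 cluster (chr11:94910793-94910935) had 50.97%, 52.3% and 55.2% in Space and 51.02%, 50.3% and 46.4% in Ground GS cells. The latter had an edge on its left, where 4 covered sites within 500 bp had levels of 90.9% to 97.7%. Esp38 belongs to the family of exocrine gland-secreted peptides, which carry chemical signals between mice, and its cluster (chr17:40154409-40154557, about 107 kb upstream) bordered on sites with mostly low measured levels. There, the 38 covered sites within 500 bp to the right had levels of 1.02% to 15.2%, and the 34 to the left ranged from 6.99% to 97.8%. The cluster sites had 21 to 39 reads a sample, and the depth of the flanking sites was not compared with it. Whether reads at these flanking sites came from other copies of the sequence was not tested. The cluster had 41.4%, 33.6% and 35.1% in Space and 36.6%, 35.9% and 47.8% in Ground GS cells. The Elfn1 cluster (chr5:139958930-139959192), near the gene of a synaptic membrane protein, had 26.3%, 34.1% and 44.5% in Space and 32.1%, 41.2% and 36.6% in Ground GS cells. In these 4 clusters the samples of the groups overlapped, and the exact permutation p was between 0.2 and 0.9.

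The other 7 of the 12 clusters with most sites held 10 or 11 sites each. The cluster nearest Gm6657 (chr12:78005835-78005969, 11 sites) spread most among the samples, from 46.3% in Ground replicate 2 to 75.5% in Ground replicate 3, with 64.3%, 69.5% and 53.4% in Space GS cells. Its group means differed by 0.497 points. The cluster nearest Sbk1, a protein kinase gene (chr7:125891619-125891734, 10 sites), had 31.9%, 52.9% and 27.2% in Space and 50.95%, 25.9% and 31.4% in Ground GS cells. In that cluster 1 sample of each group stood near 50% and the other two near 30%. By contrast, the cluster nearest Or2a14, an olfactory receptor gene (chr6:43108347-43108499, 10 sites), kept to 44.1% to 47.7% in Space and 42.2% to 47.8% in Ground GS cells. Clusters nearest Gm16224, Tnrc18 and Gm31086 also overlapped between the groups, with means of 41.8% and 40.5%, 54.2% and 49.6%, and 57.9% and 55.6% in Space and Ground GS cells respectively.

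The cluster nearest Rhof, the gene of a small GTPase that acts on the actin cytoskeleton, was the 1 cluster of the 12 in which the groups did not overlap. Its 10 sites on chr5:123258214-123258341, 12414 to 12541 bp downstream of the TSS, had 64.3%, 64.4% and 58.0% in Space and 48.1%, 48.5% and 54.2% in Ground GS cells. The difference was 11.98 points (62.2% ± 3.65 against 50.2% ± 3.43, SD, n = 3 each), and the two-sided exact permutation test gave p = 0.1, its lower limit. All 3 Space samples were above all 3 Ground samples there. Over all regions tested, the groups did not overlap in 9.22%. The adjusted p at Rhof over all regions is given with the regions. In 10 of the 12 clusters the mean was higher in Space GS cells, but the direction turned in 7 of the 12 when 1 sample was left out, for example from 1.28 to -6.52 points at Sbk1 without Space replicate 2.

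**Figure D3:**
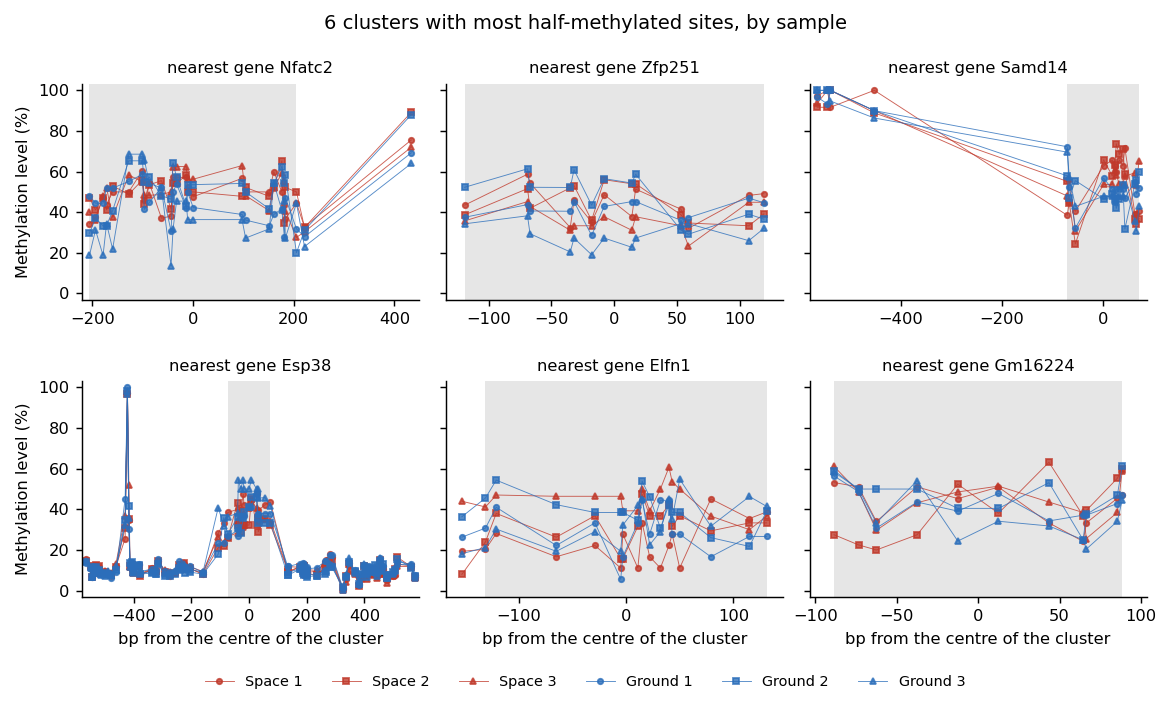
Methylation level (y axis, percent) of every covered site within 500 bp of the 6 clusters with most half-methylated sites, by distance from the centre of the cluster (x axis, bp). Each line and symbol is 1 sample (red, Space; blue, Ground), and the grey span is the cluster; the 24 sites nearest Nfatc2 have mean levels of 36.3% to 60.6%, with single samples above and below that range, and the Esp38 cluster is followed on its right by sites with mean levels of at most 15.2%.

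The sites had 3051 nearest genes, out of 13635 for all distant covered sites. For 1428 of these genes there was 1 half-methylated site, and 46 genes had 10 or more, with 587 sites in all. In GENCODE M21, which held a type for 2917 of the genes, 57.3% of the sites were nearest a protein-coding gene and 26.5% nearest a lincRNA, against 61.4% and 17.7% of all distant covered sites. A nearest gene is the one with the closest TSS and need not be the gene a site acts on.

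The gene with most half-methylated sites was Gm29235, a predicted gene, with 34 of its 70 distant covered sites. They lay 247865 to 695448 bp from its TSS, and 6 of them had over 1000 reads in a sample, up to 62796 reads, against a median of 28 to 33. No other half-methylated distant site was that deep. The deepest of them (chr2, position 98496739) had levels of 64.6%, 64.9% and 64.5% in Space and 64.8%, 65.2% and 64.5% in Ground GS cells, with a 95% Wilson interval of 64.2% to 65.0% in Space replicate 1. Such a pile of reads at 1 place was not tested for reads from other copies of the sequence. These 6 sites were singled out after their coverage had been seen.

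Esp38 had 30 half-methylated sites among 446 distant covered sites, Nfatc2 had 26 (25.5% of its distant covered sites), and Tnrc18 had 21 among 37. The mean level of the Tnrc18 sites was 59.7%, 54.9% and 54.5% in Space and 52.9%, 54.5% and 49.4% in Ground GS cells. Rhou, the gene of another small GTPase, had 15 of 56 sites in 5 clusters and single sites, with 42.9%, 52.6% and 39.4% in Space and 37.3%, 45.7% and 43.2% in Ground GS cells. The Rhou samples overlapped between the groups, and the Tnrc18 samples missed an overlap by under 0.1 points. The remaining genes of the 8 with most sites were 4930428D20Rik (14 of 37), Cdh7 (13 of 29) and Elfn1 (13 of 31). The Cdh7 sites, which lay 480173 to 947828 bp from the TSS of this cadherin gene, had 64.0%, 58.3% and 58.7% in Space and 54.4%, 54.9% and 59.6% in Ground GS cells.

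Grouped by kind of gene, half-methylated sites were most frequent near chemoreceptor genes. Of 808 distant covered sites nearest olfactory and vomeronasal receptor genes, the G protein-coupled receptors of smell and pheromone sensing, 154 (19.1%) were half-methylated, against 7.03% of all. They were nearest 79 of the 212 such genes and fell into 96 clusters and single sites, of which the largest was the Or2a14 cluster of 10. The share was 19.8% among sites with up to 3 other sites within 100 bp and 18.5% among those with 4 or more, against 8.08% and 6.21% of all distant covered sites, and the median distance to a TSS was 18876 bp, less than the 32454 bp of all. Near these genes, 16.2% of the distant covered sites had a level under 10% and 36.6% a level over 90%.

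After Or2a14, the receptor genes with most sites were Or2n1d, Vmn1r2 and Vmn1r41 with 6 each and Or4f62 with 5. The Or2n1d sites had mean levels of 55.1%, 67.3% and 62.0% in Space and 47.8%, 69.2% and 58.6% in Ground GS cells. The Vmn1r41 sites had 46.6%, 50.1% and 56.1% in Space and 59.5%, 54.1% and 64.1% in Ground GS cells. Samples of the groups overlapped at both genes.

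Protocadherin and cadherin genes, which encode cell adhesion molecules and often stand in gene-poor DNA, had 42 half-methylated sites of 286 (14.7%), with a median distance of 174750 bp. After Cdh7 came Pcdh7 with 9 sites, Cdh20 and Cdh6 with 5 each and Cdh18 with 3. The Pcdh7 sites had 48.3%, 51.1% and 56.5% in Space and 50.7%, 51.1% and 52.3% in Ground GS cells. Predicted genes named Gm or Rik had 3119 of 39411 sites (7.91%), close to the share of all.

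Genes of development and of the stem cell itself had shares below that of all distant sites when CpG density was not taken into account. Developmental transcription factor genes (homeobox, Sox, Fox and similar families) had 25 half-methylated sites of 916 (2.73%), with 70.7% of their distant covered sites under 10%, and secreted developmental signals (Wnt, Fgf and Bmp families) had 13 of 559 (2.33%). Where few CpGs lay nearby, the transcription factor genes came close to all sites, with 7.35% against 8.08%. In denser stretches they had 0.776% against 6.21%. The secreted signals had 10.2% (12 of 118 sites) where few CpGs lay nearby, above the 8.08% of all. They had 0.227% (1 of 441 sites) in denser stretches. Foxo3, Sox30 and Sox5 had 3 sites each, and Wnt8b had 3. The Sox5 sites had 61.4%, 70.9% and 59.5% in Space and 53.8%, 59.9% and 53.3% in Ground GS cells, with an overlap of the groups.

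Genes for self-renewal and differentiation of spermatogonial stem cells had 1 half-methylated site of 164 (0.610%). It was nearest Dmrt1, which encodes a transcription factor of testis development, and had 77.8%, 66.7% and 54.8% in Space and 63.0%, 78.4% and 65.9% in Ground GS cells. Among genes of the methylation machinery, 3 of 56 sites were half-methylated, all nearest Tet1, and their mean levels were 48.8%, 28.4% and 41.1% in Space and 43.3%, 29.6% and 35.8% in Ground GS cells. Zinc finger genes named Zfp had 93 of 1450 (6.41%) and microRNA genes 1 of 78 (1.28%).

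Imprinted genes, which are expressed according to parental origin in at least some tissues, had 17 half-methylated sites of 259 (6.56%). The share was 12.8% (12 sites) where up to 3 other sites lay within 100 bp and 3.03% (5 sites) where 4 or more did, against 8.08% and 6.21% of all distant covered sites. These were nearest 6 of 30 genes. Slc22a2 and Ube3a had 4 each, Peg12 and Slc22a3 had 3 each and Usp29 had 2. The Slc22a2 sites (chromosome 17) had 58.5%, 37.5% and 60% in Space and 52%, 55.4% and 35.6% in Ground GS cells. The 2 Usp29 sites, on chromosome 7, had 42.3%, 36.7% and 50.3% in Space and 27.4%, 35.9% and 30.1% in Ground GS cells, and all Space samples were above all Ground samples. The sites nearest Cdh20 and 4631405J19Rik, from other gene lists, showed the same order, whereas most listed genes overlapped. Over all tested sites, 9.07% had groups that did not overlap. The Usp29 pair was named for its gene list and got no test of its own.

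Neighbouring sites had like levels. Between a half-methylated site and the next covered site to its right, whatever its level, the median difference in mean level was 5.95 points at 2 to 10 bp (n = 1389 pairs), 10.1 points at 26 to 50 bp (n = 962) and 12.8 points at 51 to 100 bp (n = 454). It was 16.2 points at 200 to 500 bp (n = 93), 33.6 points between 500 bp and 1 kb (n = 100) and 40.4 points from there to 10 kb (n = 666). Within 50 bp the neighbour was itself half-methylated in 67.4% of 3712 cases, against 6.09% for the right-hand neighbours of all distant sites. Levels were thus closest within 50 bp, and the difference was over 2 times as large beyond 500 bp as at 51 to 100 bp. Half-methylated sites within 1 kb of a TSS had a median difference of 6.47 points from neighbours within 50 bp (n = 360). The distant ones had 7.63 points, and this difference was not tested. Distant sites of 10% to 30% had 3.61 points and those of 70% to 90% had 7.02 points. Like levels of neighbours were thus not particular to half-methylated sites.

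The deviations of the samples were shared between neighbours as well. For each site, the mean of the 6 levels was taken from each sample's level, and these deviations were correlated across pairs of neighbours. The r was 0.597 at 2 to 10 bp, 0.382 at 26 to 50 bp, 0.146 between 100 and 200 bp and 0.00314 beyond 1 kb. The pairs are not independent and share libraries and, when close, the same reads. Of the pairs within 50 bp, 2654 had the same coverage in all 6 samples, as sites on the same reads do, and their r was 0.547, against 0.438 for the 1058 pairs with different coverage. At 51 to 100 bp the r was 0.428 with the same coverage (n = 180) and 0.159 with different coverage (n = 274). The levels themselves did not show this gap, with median differences of 7.57 and 7.89 points within 50 bp. Over all pairs within 50 bp, r was 0.517 for half-methylated distant sites. It was 0.593 for distant sites of 10% to 30% and 0.334 for those of 70% to 90%.

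**Figure D4:**
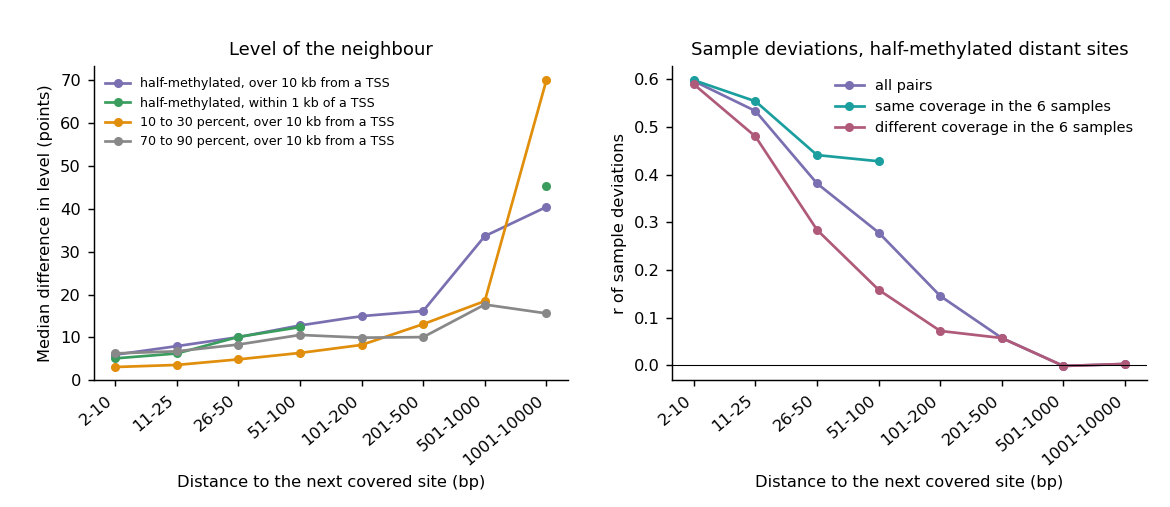
Left, median difference in mean level (y axis, percentage points) between a site and the next covered site to its right, by their distance (x axis, bp), for 4 classes of site. Right, r of the deviations of the 6 samples between half-methylated distant sites and their neighbours, for all pairs and for pairs with the same or different coverage in the 6 samples; r falls from 0.597 to 0.00314, and classes with under 50 pairs in a bin are not drawn.

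Single sites varied widely among samples. The range over the 6 samples had a median of 25.02 points (quartiles 18.9 and 32.2, largest 76.5), and all 6 samples lay within 30% to 70% at 2496 sites (34.3%). In any 1 sample, 78.9% to 81.9% of the sites were in the band. No site had samples both under 10% and over 90%, whereas 40 sites had a sample under 10% and 48 had one over 90%.

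Most of this spread was of the size that read sampling gives. The SD between replicates of a group was 10.5 points, binomial sampling of the reads at hand gives 9.15 points, and 5.19 points remained once its variance was subtracted. The remainder was 4.75 points in Space and 5.59 points in Ground GS cells. It went down with depth, from 5.95 points at sites with 15 to 19 reads in the lowest sample (n = 2904) to 4.98 at 20 to 29 reads (n = 2664), 3.998 at 30 to 49 reads (n = 1569) and 3.47 at 50 or more reads (n = 135, without the sites of over 1000 reads). Within-group chi-square per degree of freedom, which is near 1 when replicates differ by read sampling alone, averaged 1.33 (median 1.11).

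Half-methylated sites nearer to a TSS had a like remainder, 5.42 points at 1 kb to 10 kb and 5.25 points within 1 kb. Distant sites at 10% to 30% had 4.28 points, those at 70% to 90% had 3.75 points and those under 10% had 1.34 points. In chi-square per degree of freedom, which takes account of the level, the distant classes at 10% to 30% (mean 1.39) and 70% to 90% (1.27) lay on both sides of the half-methylated one. Taken by pairs of samples, the mean chi-square per degree of freedom was 1.22 to 1.47 within groups and 1.25 to 1.49 between Space and Ground samples, so that the ranges overlapped. The value was above 1 in all pairs, and each sample was counted as 1.

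The 5 sites with the widest replicate spread among the 1710 with 30 or more reads in each sample were nearest Gm42488, Cycs, Kif27, Aqr and Gm35404. At the Gm42488 site (chr5, position 112126555) the level was 36.2%, 60% and 24.6% in Space and 25.5%, 60% and 36.7% in Ground GS cells, at 47 to 69 reads, and chi-square per degree of freedom was 7.56. At the Kif27 site (chr13, position 58519674), near the gene of a kinesin motor protein, the level was 84.1%, 59.6% and 54.7% in Space and 81.6%, 60% and 43.9% in Ground GS cells. Both sites had been picked for spread within the groups, so its place there follows from the choice. Space minus Ground was -0.486 points at the Gm42488 site and 4.33 points at the Kif27 site. The 5 sites with the narrowest spread were nearest Appl2, Samd14, 5031425F14Rik, Rab10os and 4930579P08Rik. At the 4930579P08Rik site (chr10, position 116612881) the level was 64.1%, 62.3% and 60.9% in Space and 61.0%, 61.5% and 63.2% in Ground GS cells, with a chi-square per degree of freedom of 0.0520.

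The mean level over all 7278 sites was 52.0%, 50.8% and 50.7% in Space and 51.5%, 49.5% and 49.1% in Ground GS cells. The group means were 51.2% ± 0.720 and 50.03% ± 1.26 (SD, n = 3 each) and differed by 1.13 points, with Ground replicate 1 above 2 of the Space samples. The difference was 1.86 points without Ground replicate 1, 0.684 without Ground replicate 3 and 0.720 without Space replicate 1. Between samples of the same number it was 0.514, 1.35 and 1.54 points for numbers 1, 2 and 3, with Space the higher in all 3, although the labels do not say that a number marks a shared thaw or batch. It got no test, because the sites had been selected on these samples. Ground replicate 1 was also the highest Ground sample at distant sites of 10% to 30% (20.03% against 17.3% and 17.5%) and at 5 of the 7 germ cell promoters. Space replicate 1 was likewise the highest Space sample at distant sites of 10% to 30% (19.9% against 18.5% and 18.4%) and at the half-methylated sites. The part of these shifts in the group difference was not tested. Space exceeded Ground by 0.676 points at distant sites of 10% to 30%, by 1.08 points at half-methylated sites 1 kb to 10 kb from a TSS and by 1.49 points at those within 1 kb. At the other distant sites, Space minus Ground was 0.237 points for levels of 70% to 90%, 0.0817 under 10% and -0.00193 over 90%.

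Site by site, no half-methylated distant site was called different between Space and Ground GS cells by the quasi-binomial test with dispersion moderated by limma. All 7278 sites passed the filter of the test, which was run on 54290 sites of the table, and 0 were called with the threshold of 0.05 on adjusted p, whose lowest value was 0.882. The background was 0% of all tested sites. At an unadjusted p under 0.05 there were 324 sites (4.45%), against 5.01% of all tested sites, of which 217 were higher in Space (all tested sites, 2.96%) and 107 lower (all tested sites, 2.05%). Other tests gave 505 sites (Fisher's exact test on pooled reads), 185 (limma on log2 ratios) and 150 (edgeR) at that unadjusted threshold, and 0 at an adjusted p under 0.05. Over all 54290 tested sites, the same 3 tests gave 3596, 2470 and 2047 at the unadjusted threshold. In simulated data at this depth the test recovered 3% of sites changed by 20 points, 46.5% of those changed by 30 points and 84.5% of those changed by 40 points, so that changes of 20 points or less were mostly below what single sites could show.

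The levels of the 3 Space samples did not overlap those of the 3 Ground samples at 650 sites (8.93%), against 9.07% of all tested sites. Of these, 385 were higher in Space (all tested sites, 5.04%) and 265 lower (all tested sites, 4.04%). Over all 7278 sites, 4068 were higher in Space and 3210 lower, with a median difference of 1.12 points against 0.327 points over all tested sites. The size of the difference had a median of 5.46 points and a 95th percentile of 16.6 points. Differences of over 20 points occurred at 147 sites, 88 higher and 59 lower in Space, and at 3 of the 1710 deeper sites, those with 30 or more reads in each of the 6 samples.

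The sites with the smallest unadjusted p are named as the extremes of a list in which no site passed the adjusted test. At a site nearest 4930520P13Rik (chr13, position 70543736) the level was 78.6%, 53.7% and 76.9% in Space and 44.8%, 47.4% and 27.3% in Ground GS cells. At a site nearest Gm13417 (chr2, position 24497567) it was 71.8%, 64.9% and 61.5% in Space and 48.3%, 29.03% and 41.4% in Ground GS cells. The other 3 of the 5 higher in Space were nearest Daam2, a regulator of Wnt signals and actin, Gm30018 and Gm14033, where the differences were 26.1, 24.8 and 22.6 points. At Daam2 the lowest Space and the highest Ground sample crossed, at 45.5% and 46.2%.

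On the lower side, 2 of the 5 sites were nearest D330037F02Rik and lay in the same cluster of 3 sites with the same coverage. The first (chr9, position 115371252) had 33.3%, 70.6% and 26.3% in Space and 77.8%, 79.2% and 80.0% in Ground GS cells, on 15 to 24 reads. Space replicate 2 was close to the Ground samples there and the other 2 Space samples were not. A site nearest Gm39473 (chr12, position 74688742), on 37 to 54 reads, had 53.7%, 50% and 34% in Space and 61.5%, 62.2% and 72.5% in Ground GS cells. The other 2 were nearest ENSMUSG00000121379 and 4930589P08Rik, with differences of -27.0 and -27.1 points. Adjusted p was 0.882 at the 4930520P13Rik site and 0.888 at the 9 others by the same limma-moderated test.

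Reads were also summed over regions, that is, runs of at least 3 covered sites of any level with gaps of at most 100 bp. Of 6927 regions tested, 723 held 3 or more half-methylated distant sites, with 2981 such sites, and 0 of them were called (0% of all regions), the lowest adjusted p from the limma-moderated test being 0.954. At an unadjusted p under 0.05 there were 47 (6.50%), against 4.75% of all regions. The groups did not overlap in 70 (9.68%), against 9.22% of all regions. The difference between the group means had a median size of 4.22 points and exceeded 20 points in 3 regions, and 398 were higher and 325 lower in Space.

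The 5 regions with the smallest unadjusted p were nearest 1700024P12Rik, Gm26639, Gm13417, Rhof and Gm49766, each with an adjusted p of 0.954 by this limma-moderated test. The region nearest 1700024P12Rik (chr17:3094324-3094417, 8 half-methylated sites of 11) had 42.9%, 37.6% and 38.1% in Space and 25.8%, 28.0% and 18.2% in Ground GS cells. The region nearest Gm13417 (chr2:24497549-24497603, 3 sites) had 70.9%, 64.9% and 56.4% in Space and 48.3%, 31.2% and 44.8% in Ground GS cells. The Rhof region was the cluster given above, with a difference of 11.98 points. Of the 5, the 1 lower in Space was nearest Gm49766 (chr10:67655106-67655211, 4 sites), with 57.6%, 55.0% and 55.0% in Space and 71.9%, 71.0% and 71.3% in Ground GS cells. In all 5 the samples of the groups did not overlap, but the regions had been ranked by the p of this same comparison.

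**Figure D5:**
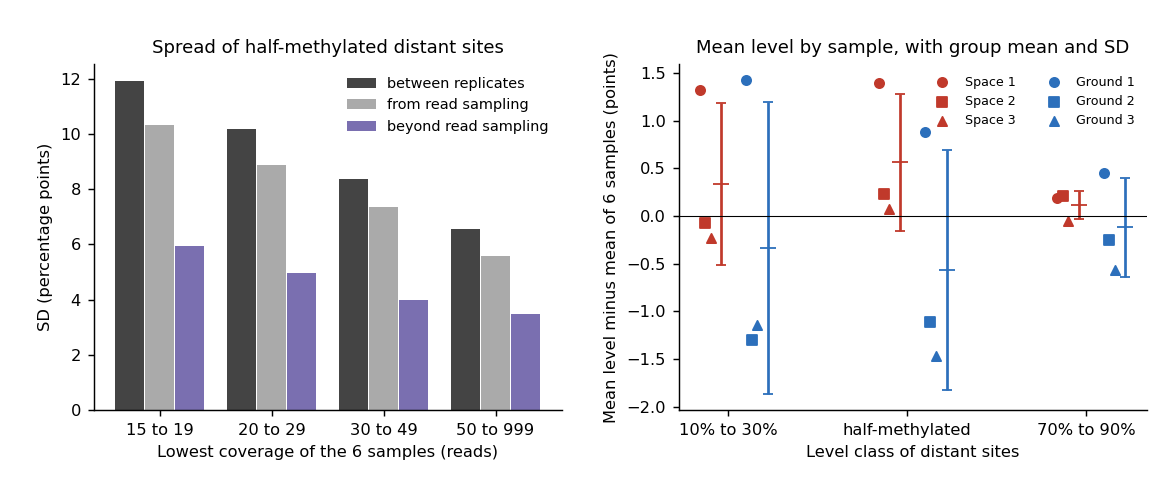
Left, SD between replicates, SD from read sampling and SD beyond it (y axis, percentage points) at half-methylated distant sites by the lowest coverage of the 6 samples (x axis, reads); the SD beyond read sampling falls from 5.95 to 3.47 points. Right, mean level of each sample minus the mean of the 6 samples (y axis, percentage points) for 3 level classes of distant sites, with group mean and SD beside the points (n = 3 each); Ground replicate 1 lies among the Space samples at half-methylated sites.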

How the data were processed

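RRBS libraries of 3 Space and 3 Ground samples were prepared by the study with the Zymo-Seq RRBS Library Kit. Per the submitters' processing notes, Trim Galore, Bismark 0.24.2, methylKit and genome build mm39 were used. The deposited table holds, for each CpG site and sample, coverage as a read count and methylation as a percent of reads, with the closest TSS. Methylated reads were recovered as count times percent and came within 0.000266 of a whole number. Positions are given 1-based. PCR duplicates were not marked by molecular identifiers in the table, so intervals cover counting error only. Sites were not filtered for repeats or for differences between DBA/2 and the reference strain. Sequences and exon or intron annotation in mm39 were not used here.

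A site was tested where all 6 samples had at least 15 reads and the mean level was 5% to 95%. Space and Ground were compared per site and per region with a quasi-binomial likelihood-ratio test in R 4.3.3, the dispersion between replicates being moderated with squeezeVar of limma 3.58.1, and p-values were adjusted by Benjamini-Hochberg over all sites or regions tested, with a threshold of 0.05. In these sites the moderation gave 1 common dispersion of 1.32. The test was checked on simulated reads with 200 changed sites. Regions sum CpG calls, and 1 read can count at several CpGs. Named clusters were compared by exact permutation tests in scipy 1.17.1. edgeR 4.0.16, limma on log2 ratios with 2 added to each count and Fisher's exact test were alternatives, together with other limits on coverage, level, gap and distance and leaving out each sample. SD beyond read sampling is the root of the within-group variance less the unbiased binomial variance.

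The members, gene lists and rules were chosen with earlier results of these data known. Named were the 12 clusters and 8 nearest genes with most sites, the 5 sites with the smallest p in each direction, the 5 with the widest and the 5 with the narrowest replicate spread among sites with at least 30 reads, the 2 sites on each side of each limit (1 of which is not reported here), the 5 regions with the smallest p, and up to 5 genes per list.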

Additional observations from a re-analysis of the deposited data

How the results depend on the processing

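The number of half-methylated distant sites rested on the limits: 12045 with a minimum of 10 reads, 4374 with 20 and 1710 with 30, 3450 with a level of 40% to 60% and 3258 beyond 50 kb, against 7278. The site test called 0 of them under 13 of 14 alternatives. Without the filter on the level it called 5, against 4228 of all 503716 sites tested in that setting. There the prior dispersion, towards which the dispersion of each site is drawn, was 0.0903, against 1.32 with the filter. The percent of sites at an unadjusted p under 0.05 was 6.94 with Fisher's exact test, 2.54 with limma and 2.06 with edgeR, against 4.45. With the replicate block (same-numbered samples taken as paired) 0 sites and 0 regions were called, as without it. At an unadjusted p under 0.05 the block gave 258 sites (3.54%), against 2174 of all 54290 tested sites. Deviations of same-numbered samples from their group means correlated with r of 0.0774, 0.0473 and 0.0182, so that no pairing was assumed, although every sample correlated best with its own number and same-numbered samples carry consecutive sample codes in the labels, which do not say what the codes mark. The region test called 0 under all 13 alternatives. At an unadjusted p under 0.05 there were 4.83% to 8.85% of the regions that held half-methylated distant sites. The highest share was without Ground replicate 1, with 64 of 723 such regions, against 47 with all samples. Over all 6927 regions the count also rose in that setting, to 418 against 329, so the range alone is not a comparison with all regions. The mean level differed by 0.703 points with reads pooled over sites, against 1.13, and stayed higher in Space under all 12 alternatives. These draw on the same 6 samples, and the mean difference of same-numbered samples, counted among them, equals 1.13 by arithmetic. The median level difference from a neighbour within 50 bp was 7.89 points for pairs of different coverage, 6.60 with a minimum of 20 reads and 5.97 with 30, against 7.63. The SD beyond read sampling was 3.95 points with a minimum of 30 reads and 4.79 to 5.46 points with 1 sample left out, against 5.19. With 1 sample left out, 1 to 3 of the 12 clusters had groups that did not overlap, against 1 (3 without Space replicate 1, 2 without Ground replicate 1 and 3 without Ground replicate 2). Groups of fewer samples separate more readily, and the share over all regions was not taken for these settings. The difference between the group means turned in sign without Ground replicate 3 at Zfp251 (2.72 to -2.51 points), Esp38 (-3.40 to 0.428) and Gm16224 (1.27 to -1.79), without Space replicate 1 or Ground replicate 2 at Elfn1 (-1.66 to 2.67 and 0.622), without Space replicate 1 or 2 or Ground replicate 2 at Gm6657 (0.497 to -0.465, -3.04 and -7.31), without Space replicate 1 or Ground replicate 1 at Or2a14 (0.606 to -0.0726 and -1.19), and without Space replicate 2 or Ground replicate 2 or 3 at Sbk1 (1.28 to -6.52, -3.82 and -1.07). Alternatives on the named clusters, high coverage and a dispersion trend were added after the data had been seen. The cause of these shifts was not tested. At this depth and with 3 samples a group, changes of 20 points at single sites were mostly missed in simulated data.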

Other observations

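The sites with the widest range over the 6 samples, picked after their values had been seen, were shallow. A site nearest Dusp19, the gene of a dual specificity phosphatase, had 88.2%, 59.1% and 63.6% in Space and 60%, 11.8% and 58.8% in Ground GS cells on 15 to 22 reads. A site nearest Ppp1r16b had 92.6%, 23.8% and 60.9% in Space and 70.6%, 59.1% and 42.9% in Ground GS cells on 17 to 27 reads. Of the other 3, 2 were nearest 1700110I07Rik, at positions 40767963 and 40768093 of chromosome 7. They carried the same 37, 19, 20, 17, 30 and 30 reads. Their levels moved together, with 21.6%, 15.8% and 60% in Space and 82.4%, 30% and 46.7% in Ground GS cells at the first, and 29.7%, 15.8%, 55%, 82.4%, 30% and 60% at the second. None of these sites passed the adjusted test.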
